A study of Mus musculus with 4 samples.

Results

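The nuclei described here are 715 cortical interneurons, 128 from photothrombotic (PT) lesions of the mouse brain and 587 from the parenchyma around them. They were taken from 23489 barcodes, of which 14119 held 3000 or more UMIs (unique molecular identifiers, each of which counts 1 captured transcript). A barcode was a member where it held 3000 or more gene UMIs, 4 or more UMIs of Gad1 and Gad2 together, 1 or fewer UMIs of Slc17a7, and 4 or fewer UMIs of Rgs9, Drd1 and Drd2 together. The question was which genes differed between lesional and parenchymal interneurons in the same direction in both libraries of the study. All mice had a PT injury, in which light activates a dye in the blood and closes cortical vessels, and were examined at 21 days post-injury (dpi). Ctrl mice were wild type. Cxcl12-cKO mice were Col1a2(creER); Cxcl12(flox), in which an inducible Cre recombinase under the fibroblast gene Col1a2 is combined with a floxed Cxcl12 gene. Each genotype was 1 library made from the combined tissue of a male and a female mouse, so the genotype and the library cannot be told apart, and the parenchyma is tissue of an injured brain. Mice were 7 to 21 weeks old where nothing else was stated. Lesion and parenchyma nuclei were tagged apart, mixed at 75% and 25%, sorted on DAPI and captured with the Chromium 3′ chemistry.

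Cortical interneurons release GABA, which they make with Gad1 and Gad2, and damp or time the firing of the excitatory neurons around them. They arise in the medial and caudal ganglionic eminences (MGE and CGE) of the embryo. MGE-type cells carry Lhx6 and Sox6 and include the parvalbumin and somatostatin classes, and CGE-type cells carry Adarb2 and Prox1 and include the Vip and neurogliaform classes. Many classes are named for the neuropeptide that they release beside GABA, and several of these peptide genes are known to be driven by neuronal activity through cyclic AMP response elements.

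Interneurons made up a smaller share of the lesional than of the parenchymal barcodes in both libraries. In the library labelled Ctrl they were 85 of 4058 lesional barcodes with 3000 or more UMIs (2.09%, 95% exact binomial interval 1.68 to 2.58) and 277 of 3100 parenchymal ones (8.94%, 7.95 to 9.99). In the library labelled Cxcl12-cKO they were 43 of 3962 (1.09%, 0.787 to 1.46) and 310 of 2999 (10.3%, 9.27 to 11.5). These intervals cover counting error only, each region of a library was 1 pool, and the other lesional barcodes were shallower, with medians of 4588 and 4696 UMIs against 17964 and 19127 in the parenchyma. Members with exactly 4 UMIs of Gad1 and Gad2 numbered 9 and 11 in the lesions and 37 and 23 in the parenchyma (Ctrl, then Cxcl12-cKO), and nuclei that failed with 3 numbered 10, 12, 38 and 36 in the same order. Nuclei that failed through Rgs9, Drd1 and Drd2, genes of striatal projection neurons, numbered 5 and 18 in the lesions and 73 and 76 in the parenchyma.

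UMIs were summed over the members of each region of each library and scaled to 1000000 UMIs per sum (CPM). Gad1 was at 321 and 316 CPM in the lesions and 353 and 321 CPM in the parenchyma, and Gad2 at 327 and 386 CPM against 321 and 348 CPM. Both chose the members, so their like levels are set by the rule and were not tested. A nucleus was called MGE-type where Lhx6, Sox6 and Nxph1 UMIs were at least 3 and over 2 times those of Adarb2, Prox1 and Vip, and CGE-type in the reverse case. MGE-type nuclei were 60.0% (48.8 to 70.5) of lesional and 59.2% (53.2 to 65.0) of parenchymal members in the library labelled Ctrl, and for Cxcl12-cKO they were 58.1% (42.1 to 73.0) and 57.4% (51.7 to 63.0). CGE-type nuclei were 35.3%, 33.2%, 39.5% and 31.6% of members in the same order. The intervals of lesion and parenchyma overlapped in both libraries for both types. Of the 6 genes that define the types, Vip fell, as described below with the neuropeptides, and Lhx6, Sox6, Nxph1, Adarb2 and Prox1 did not pass the test between regions. Nxph1 stood at 2851, 2805, 2354 and 2747 CPM in the lesion and parenchyma of Ctrl and of Cxcl12-cKO, and Adarb2 at 4766, 4184, 4289 and 4013 CPM.

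Members had median depths of 12535 and 9515 UMIs in the lesions and 13817 and 16193 UMIs in the parenchyma, and the 4 sums held 510101 to 5449810 UMIs. At 3000 UMIs per nucleus the median number of genes was 1505 and 1522 in the lesions and 1540 and 1549 in the parenchyma. Each nucleus was assigned to its region by the authors from its tag. The tag of its own region made up 98.3% and 98.1% of the region tag UMIs in lesional members and 95.7% and 96.0% in parenchymal members. Libraries shared up to 22 barcode sequences in a pair of matrices, and members shared none. The targeted gene went against its label. Cxcl12 stood at 61.0 CPM in the other lesional barcodes labelled Ctrl and 127 CPM in those labelled Cxcl12-cKO, while interneurons held 6, 2, 3 and 10 of its UMIs in the 4 sums. The sources used here do not give which exons were floxed, and the 3′ counts may lie outside them. The comparison here is between regions of the same library and takes no direction from the genotype label.

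Of 12535 genes tested, 564 were higher (4.5%) and 786 were lower (6.27%) in lesional interneurons, at an adjusted p under 0.05 in edgeR's quasi-likelihood test with the library as a term and with the same sign in both libraries. Genes passed the filter on low counts where either region was high enough, so a gene could enter the test through one region alone. The median log2 ratio of lesion over parenchyma over all genes tested was -0.02. Of the genes that were higher, 286 differed 2-fold or more, and of those that were lower, 676 did. The sums were also split by mouse, since Xist and Y-linked genes tell the female from the male of each library. The female and the male gave 43 and 30 lesional nuclei in Ctrl and 26 and 9 in Cxcl12-cKO, and 131 and 109 parenchymal nuclei in Ctrl and 146 and 98 in Cxcl12-cKO. Nuclei with transcripts of both sexes (11 and 7 lesional and 32 and 58 parenchymal) or of neither (1 and 1, and 5 and 8) were left out. In that fit of 4 pairs with the mouse as a block, 91 of 9359 genes were higher (0.972%) and 381 were lower (4.07%). Of the 564 genes, 400 were tested there and 88 were called again, and 365 were higher in all 4 mice. Of the 786 genes, 621 were tested there and 372 were called again, and 719 were lower in all 4 mice. DESeq2 on the 4 sums called 75 genes higher (0.677% of 11076) and 133 lower (1.2%). Many single calls were lost when 1 mouse was left out, which also leaves fewer nuclei in the sum. The part of each in these losses was not tested. Of the called genes that were members of the lists below or among the largest changes, 77 lost the call without the female and 75 without the male Cxcl12-cKO mouse, and 42 and 27 without the female and the male Ctrl mouse.

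**Figure D1:**
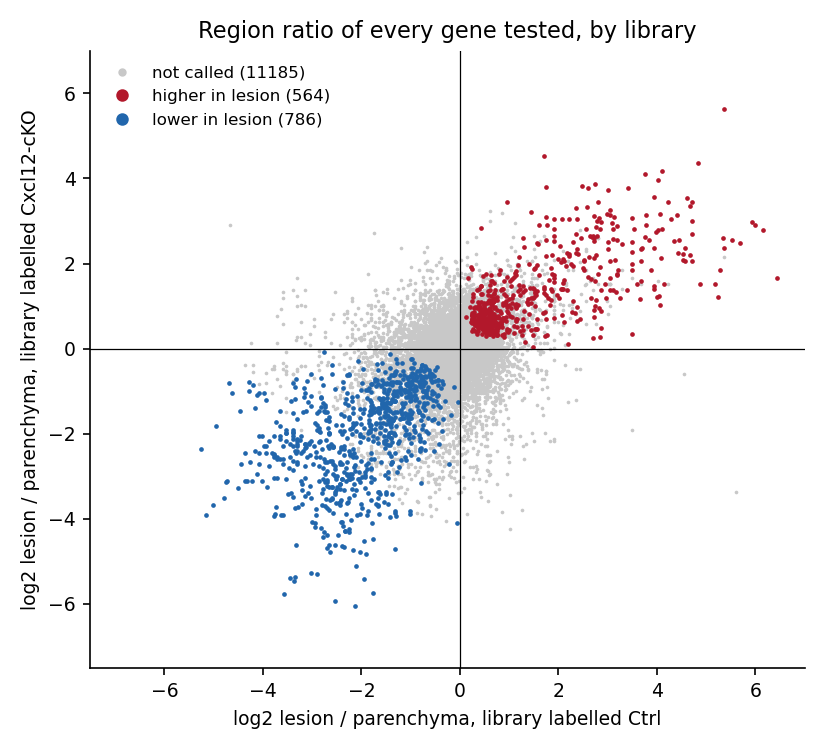
Log2 ratio of lesion over parenchyma of each of the 12535 genes tested, in the library labelled Ctrl (x axis) and in the library labelled Cxcl12-cKO (y axis), as ratios of sums scaled by TMM with 0.5 UMI added. Each point is 1 gene, red where it was called higher (564), blue where it was called lower (786) and grey otherwise, and the called genes lie in the upper right and lower left because a call asked for the same sign in both libraries.

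Neuropeptide genes were the list that stood lowest in lesional interneurons. Of 22 neuropeptide and granin genes, 17 passed the filter on low counts. Of these, 7 fell in the lesion and none rose, with a median log2 ratio of -1.25 over the 17, against 6.27% of all genes tested that fell. Several measures moved with this list. Genes of short span stood lower in general, with a median of -0.50 and 8.77% called lower in the shortest sixth of protein-coding genes, and Sst, Cort and Vip span 1386, 1730 and 8400 bases. Malat1 took 2.32% and 2.60% of UMIs in lesional against 6.66% and 6.39% in parenchymal interneurons, and mitochondrially encoded transcripts were at 1734 and 3135 CPM against 609 and 1329 CPM. The part of these in the result was not tested. Summed over the list, neuropeptide transcripts came to 190 and 186 CPM in lesional interneurons and 480 and 498 CPM in parenchymal ones (Ctrl, then Cxcl12-cKO). In the sums per mouse 6 of the 7 were again lower, and the 7th, Cort, was too rare to be tested there.

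Sst, which encodes somatostatin, the peptide of the dendrite-targeting MGE class, was counted with 15 UMIs in the lesion and 378 in the parenchyma of the library labelled Ctrl, and with 3 and 507 in the library labelled Cxcl12-cKO. These were 12.7 against 87.2 CPM and 5.88 against 93.0 CPM. Both lesions stood below both parenchymas, and the log2 ratio was -3.06 ± 0.29 (SE, 2 pairs, adjusted p = 1.81e-09). It was -3.16 over the 4 mouse pairs (adjusted p = 0.000129), negative in 4 of 4 mice, and -3.03 in MGE-type nuclei alone. No lesional nucleus held 5 or more Sst UMIs (0 of 128, which allows a share of up to 2.34%), while 65 of 587 parenchymal nuclei did. Those 65 nuclei carried 309 of the 378 Sst UMIs labelled Ctrl and 457 of the 507 labelled Cxcl12-cKO. A single Sst UMI or more was found in 10.6% and 4.65% of lesional interneurons and in 23.5% and 21.3% of parenchymal ones. In 1 random thinning of each nucleus to 3000 UMIs the shares were 0% and 2.33% against 13.0% and 10.3%, and in another 1.18% and 2.33% against 13.0% and 10.7%. In excitatory neurons chosen by the mirrored rule (4 or more Slc17a7 UMIs and 1 or fewer of Gad1 and Gad2), at median depths of 18261 to 24793 UMIs, these shares were 1.25%, 0%, 1.82% and 3.24%. Fewer somatostatin cells and less Sst RNA per cell cannot be told apart in these sums. Other genes of the somatostatin class, named after their values were seen, had unlike ratios in the libraries. Grin3a, an NMDA receptor subunit, stood at 388 CPM in the lesion and 351 CPM in the parenchyma labelled Ctrl, and at 98.0 and 369 CPM in those labelled Cxcl12-cKO. Elfn1, a synaptic organiser of the same class, stood at 60.8, 51.7, 29.4 and 71.8 CPM in that order. Neither gene passed the test, nor did the difference between the libraries (adjusted p = 0.567 and 0.983).

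The other called neuropeptide genes fell in both libraries as well. Npy, neuropeptide Y, was at 21.1 and 13.7 CPM in the lesions and 58.4 and 51.9 CPM in the parenchyma (log2 ratio -1.58 ± 0.27, adjusted p = 0.000103). Vip, the vasoactive intestinal peptide of a CGE class that inhibits other interneurons, was at 23.6 and 29.4 CPM against 71.3 and 62.0 CPM (-1.37 ± 0.25, adjusted p = 0.000177). In each of these genes both lesional sums lay below both parenchymal sums. The shares of nuclei with a UMI lay closer in some pairs. A Vip UMI was found in 5.88% and 4.65% of lesional and 7.58% and 9.03% of parenchymal interneurons (Ctrl, then Cxcl12-cKO). For Npy these shares were 21.2% and 11.6% against 24.9% and 24.5%. The granins, which load peptides into dense-core vesicles, moved unevenly. Scg2 was at 27.0 and 21.6 CPM against 58.2 and 65.9 CPM (-1.25 ± 0.25, adjusted p = 0.000632) and Chga at 14.3 and 11.8 CPM against 34.2 and 37.6 CPM (-1.36 ± 0.32, adjusted p = 0.00346), whereas Chgb, at 31.2 and 45.1 CPM against 42.7 and 38.4 CPM, did not pass the test. Vgf, a secreted precursor induced by neurotrophins, was at 6.75 and 7.84 CPM against 25.2 and 24.0 CPM (-1.76 ± 0.40, adjusted p = 0.0028). Cort, which encodes the somatostatin relative cortistatin, held 2 and 1 lesional UMIs against 67 and 62, a 7.45-fold lower level with a counting interval of 2.49 to 36.6. The remaining 10 genes tested, among them Cck, Tac1, Penk and Pnoc, did not pass, with log2 ratios of -2.20 to -0.13. Of the 7, only Sst passed in DESeq2 (adjusted p = 3.6e-06), and the others lay between 0.0908 and 0.447. Sst also passed with each mouse left out in turn, while each of the other 6 lost its call without the female or the male Cxcl12-cKO mouse, and Vgf and Cort also without the female Ctrl mouse.

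**Figure D2:**
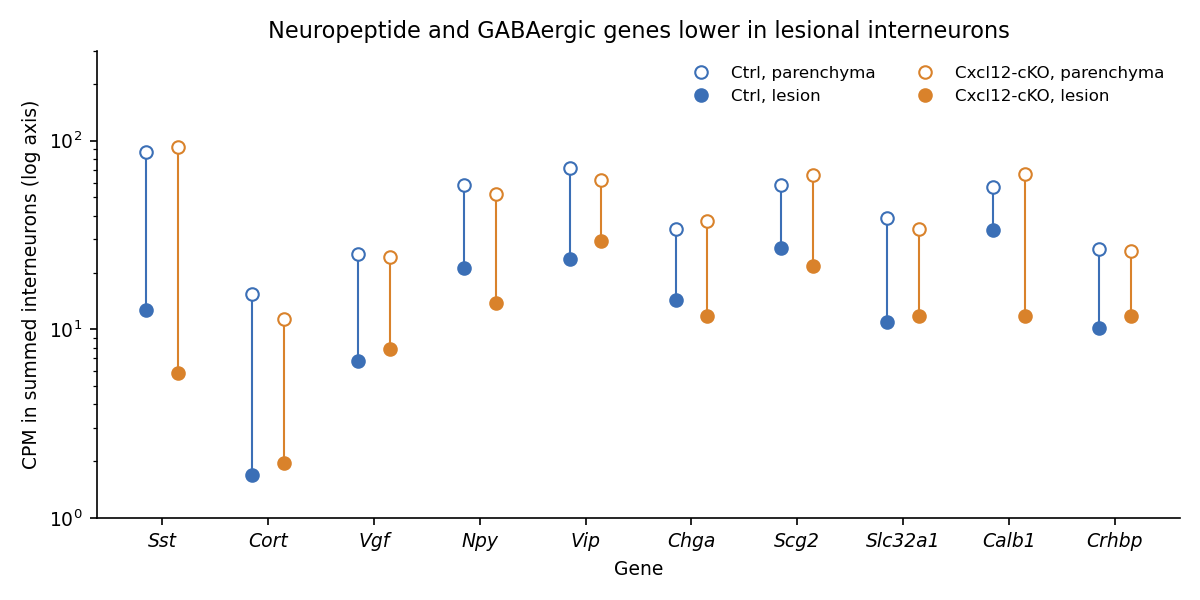
Level of 7 neuropeptide genes and of Slc32a1, Calb1 and Crhbp in summed interneurons, in CPM on a log axis, with blue for the library labelled Ctrl, orange for Cxcl12-cKO, open circles for parenchyma and filled circles for lesion. Each circle is 1 sum over the nuclei of 1 region of 1 library and each line joins the regions of a library, and in every gene both filled circles lie below both open ones, from 12.7 and 5.88 against 87.2 and 93.0 CPM in Sst to 33.7 and 11.8 against 56.8 and 67.0 CPM in Calb1.

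Promoters of the peptide genes are shown because several of them are textbook targets of the cyclic AMP response element, whose full form is TGACGTCA and whose half-site is TGACG, or CGTCA on the other strand. The 150 bases before the start of 4 genes that fell are given from RefSeq on build GRCm38.p6, each on its own strand, with the first full site or, where there is none, the half-site in capitals.
Sst, chr16:23890845-23890994, minus strand: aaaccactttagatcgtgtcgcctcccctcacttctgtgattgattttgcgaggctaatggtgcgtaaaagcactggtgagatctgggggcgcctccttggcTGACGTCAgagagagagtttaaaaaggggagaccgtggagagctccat
Scg2, chr1:79440027-79440176, minus strand: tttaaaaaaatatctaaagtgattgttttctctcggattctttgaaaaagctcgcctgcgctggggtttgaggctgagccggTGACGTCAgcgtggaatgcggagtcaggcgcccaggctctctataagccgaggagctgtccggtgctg
Vip, chr10:5639068-5639217, plus strand: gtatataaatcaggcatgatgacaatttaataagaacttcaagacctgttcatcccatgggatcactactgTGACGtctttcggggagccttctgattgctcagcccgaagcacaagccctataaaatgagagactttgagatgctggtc
Chga, chr12:102554791-102554940, plus strand: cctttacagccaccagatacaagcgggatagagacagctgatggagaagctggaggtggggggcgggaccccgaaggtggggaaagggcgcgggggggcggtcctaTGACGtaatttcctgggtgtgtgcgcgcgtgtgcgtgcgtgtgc
The capitals begin 48, 68, 79 and 44 bases before the start of Sst, Scg2, Vip and Chga.

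In windows from 250 bases before to 50 after the start, searched on both strands, a full site was present in 549 of 27025 genes (2.03%) and a half-site, which every full site contains, in 23.0%. Among the 9457 genes tested that had a promoter entry the shares were 3.70% and 36.5%. Of the 6 called neuropeptide genes with an entry, Sst and Scg2 held a full site, and Cort, Vip and Chga a half-site only, while Npy held neither. Over the 13 tested neuropeptide genes with an entry 4 (30.8%) held a full site and 9 (69.2%) a half-site, among them Chgb and Cartpt with a full site and Cck and Tac1 with a half-site, none of which was called. Over the 468 genes with an entry that fell, the shares were 3.85% and 36.8%, close to those of all genes tested. Among the 425 genes with an entry that rose they were 1.88% and 30.8%. A match is a run of letters and not a binding site. The activity-dependent immediate early genes, many of which answer to the same element, were sparse. Of 30, 19 were tested. Beside 4.5% higher and 6.27% lower among all genes tested, 1 rose and 2 fell, with a median of -0.65. Vgf, given above, was 1 of those that fell. Btg2, which restrains proliferation, held 0 lesional UMIs in both libraries against 17 and 29 in the parenchyma, and was at least 2.66-fold lower by the floor of 3 UMIs over both lesions. Baz1a, a chromatin remodelling subunit, rose with 10 and 4 lesional against 8 and 10 parenchymal UMIs (2.15 ± 0.68, adjusted p = 0.0369). Homer1 and Rheb, the most abundant genes of the list, did not pass the test (-0.23 and 0.11).

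Of the genes for GABA synthesis, storage and uptake, 1 of 10 fell and none rose. Over all genes tested 6.27% fell and 4.5% rose. Slc32a1, which encodes the transporter that fills synaptic vesicles with GABA, was counted with 13 and 6 UMIs in the lesions and 168 and 186 UMIs in the parenchyma, with no overlap in CPM (-1.69 ± 0.33, adjusted p = 0.000499). It was lower in 4 of 4 mice (adjusted p = 0.0174), and it lost its call without the male Cxcl12-cKO mouse and in DESeq2 (adjusted p = 0.241). A Slc32a1 UMI was found in 15.3% and 11.6% of lesional and 40.4% and 40.3% of parenchymal interneurons, and in 0%, 0%, 0.844% and 1.00% of excitatory neurons. In 1 random thinning to 3000 UMIs the interneuron shares were 4.71% and 0% against 13.0% and 8.39%, and in another 2.35% and 6.98% against 11.6% and 11.3%. Gabbr2, a GABA-B receptor subunit, stood at 481 and 516 CPM against 480 and 428 CPM and did not pass the test. Of the 12 GABA-A receptor subunits tested, Gabrg3 rose, at 2495 and 2919 CPM against 2058 and 1697 CPM (0.56 ± 0.13, adjusted p = 0.00312). Gabra3 fell, at 84.4 and 43.1 CPM against 108 and 105 CPM (-0.65 ± 0.20, adjusted p = 0.0336). No GABA-A receptor subunit was called in the sums per mouse. None of the 12 genes of the inhibitory postsynapse passed, with a median of 0.08, nor did Magi2 (0.06) or Dmd (0.16), its most abundant members. In the fit of 12535 genes 1317 and 1635 were higher and lower at an unadjusted p under 0.05.

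Among markers of the interneuron types, 1 of 15 MGE-type genes rose and 4 fell, and 2 of 17 CGE-type genes fell. Of all genes tested 4.5% rose and 6.27% fell. Beside Sst, Cort and Vip, the called markers were the following. Crhbp, which binds corticotropin-releasing hormone, was at 10.1 and 11.8 CPM against 26.5 and 25.9 CPM (-1.27 ± 0.36, adjusted p = 0.0178). Pde3a, a cyclic nucleotide phosphodiesterase, was at 14.3 and 17.6 CPM against 38.1 and 44.4 CPM (-1.35 ± 0.30, adjusted p = 0.00208). Cnr1, the CB1 cannabinoid receptor of Cck cells, was at 90.3 and 80.4 CPM against 137 and 173 CPM (-0.78 ± 0.18, adjusted p = 0.00323). Nos1, the neuronal nitric oxide synthase, was the gene that rose, at 54.8 and 58.8 CPM against 44.1 and 23.3 CPM (0.74 ± 0.24, adjusted p = 0.0449), and it was higher in only 2 of 4 mice. Pvalb, parvalbumin, stood at 21.1 and 23.5 CPM against 30.7 and 28.1 CPM and did not pass. Of 18 interneuron transcription factors tested, only Dlx2 was called, with 1 and 1 lesional against 45 and 24 parenchymal UMIs (5.98-fold lower, counting interval 1.59 to 50.4). Lhx6, Sox6, Npas3 and Zeb2 had log2 ratios of -0.15, 0.19, 0.18 and 0.37 and did not pass. Of 21 genes of calcium buffering and signalling, Calb1, the buffer calbindin, fell at 33.7 and 11.8 CPM against 56.8 and 67.0 CPM (-1.21 ± 0.27, adjusted p = 0.00255), as did the calcium release channel Ryr3 (-0.69), while the kinase Camk2d (0.56) and the IP3 receptor Itpr2 (0.90) rose. In the sums per mouse no transcription factor of the list was called. There 2 MGE-type, 1 CGE-type and 1 calcium gene were called lower and none higher.

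Genes of excitatory input and of excitability were mostly not called, beside 4.5% higher and 6.27% lower among all genes tested. Of 9 AMPA and NMDA receptor subunits, Grin2a rose (0.48 ± 0.13, adjusted p = 0.0148) and Gria2, the subunit that keeps AMPA receptors impermeable to calcium, fell (-0.45 ± 0.13, adjusted p = 0.0219). Gria2 was at 844 and 900 CPM against 1188 and 1237 CPM, and both lesions stood below both parenchymas. Among kainate and metabotropic receptors, Grm3, which couples to inhibitory G proteins, fell at 77.6 and 45.1 CPM against 158 and 134 CPM (-1.19 ± 0.19, adjusted p = 3.21e-05). It was lower in 4 of 4 mice (-1.37, adjusted p = 0.00125), and Grik4, a kainate receptor subunit, rose (0.52). Of 23 sodium and calcium channel genes, the sodium channels Scn9a (-1.90 ± 0.22, adjusted p = 6.47e-08) and Scn2b (-1.66 ± 0.42, adjusted p = 0.00741) fell and the L-type channel Cacna1c rose (0.43 ± 0.14, adjusted p = 0.0382). Of 34 potassium and HCN channel genes, Kcna1 fell (-0.96 ± 0.22, adjusted p = 0.0028) and Dpp6, an auxiliary subunit of A-type channels, rose (0.47 ± 0.13, adjusted p = 0.0124). Of 27 genes of vesicle release only the priming factor Unc13b rose (0.56), and of 41 genes of synaptic adhesion Cntn4 (0.43) and Dscaml1 (0.50) rose. The abundant members Syt1, Rims1, Nrxn3 and Cntnap2 had ratios of 0.06, 0.15, 0.22 and -0.04 and did not pass. In the sums per mouse no gene of AMPA and NMDA receptors, vesicle release or synaptic adhesion was called. No kainate or metabotropic receptor and no sodium or calcium channel gene was called higher there. Of the potassium and HCN channel genes 1 was called higher there and none lower. Of 11 genes of the perineuronal net, the matrix coat of parvalbumin cells, Vcan rose (0.82) and Ptprz1 (-0.90 ± 0.18, adjusted p = 0.0006) and Has1 fell, the last with 1 and 0 lesional against 38 and 45 parenchymal UMIs.

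**Figure D3:**
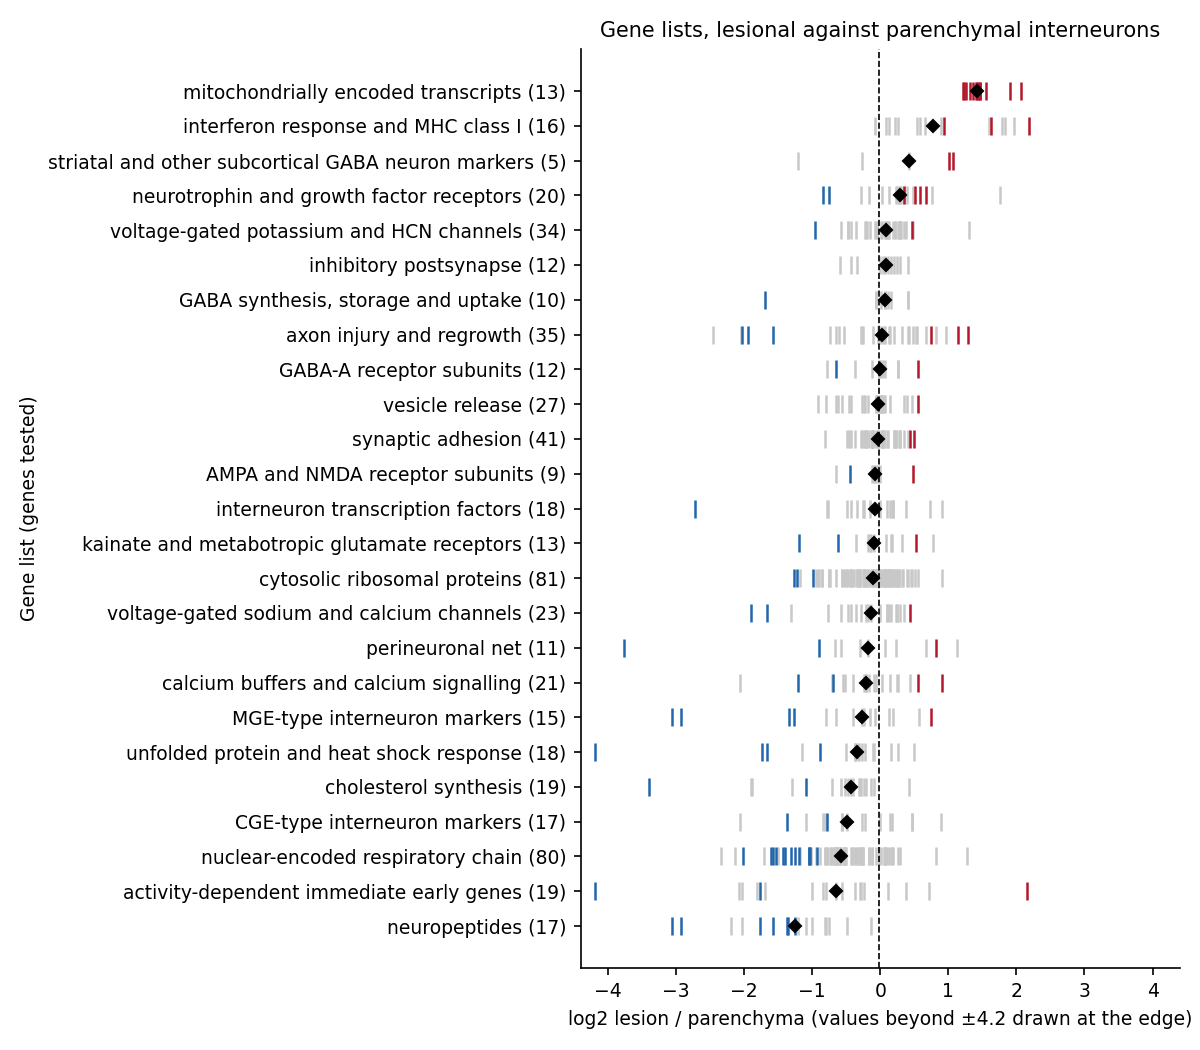
Log2 ratio of lesion over parenchyma (x axis) of the tested genes of 25 gene lists in interneurons, with 1 line per list and the number of genes tested in brackets. Each tick is 1 gene, red where called higher, blue where called lower and grey otherwise, the diamond is the list median and the dashed line the median of all genes tested (-0.02), and the medians run from -1.25 for neuropeptides to 1.42 for mitochondrially encoded transcripts.

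Of 20 neurotrophin and growth factor genes tested, 4 rose and 2 fell, against 4.5% higher and 6.27% lower among all genes tested. Erbb4, the neuregulin receptor that interneurons carry at high level, rose with 12094 and 5157 lesional against 35490 and 43798 parenchymal UMIs (0.35 ± 0.10, adjusted p = 0.0259), and Igf1r (0.59), Fgf13 (0.67) and Nrg2 (0.51) rose as well. Fgfr2 was at 185 and 135 CPM against 309 and 277 CPM (-0.84 ± 0.16, adjusted p = 0.000403) and Nrg1, a ligand of Erbb4, at 558 and 490 CPM against 780 and 1056 CPM (-0.76 ± 0.15, adjusted p = 0.000491). Both were lower in 4 of 4 mice. In the sums per mouse 2 genes of this list were called lower and none higher. Of 35 genes of axon injury and regrowth tested, Marcks (1.14 ± 0.32, adjusted p = 0.0182), Nrp1 (1.28 ± 0.26, adjusted p = 0.000921) and Stat3 (0.74 ± 0.22, adjusted p = 0.0242) rose, and Npy, the guidance protein Flrt3 (-1.94 ± 0.30, adjusted p = 1.68e-05) and the neurofilament Nefm (-2.03 ± 0.57, adjusted p = 0.0167) fell. These 3 and 3 of 35 genes stand beside 4.5% higher and 6.27% lower among all genes tested, and nothing is read from the counts. The 3 that rose were also higher in the other lesional than in the other parenchymal barcodes, at 97.1 against 18.3 CPM for Marcks, 446 against 98.2 CPM for Nrp1 and 265 against 29.0 CPM for Stat3. None of these 3 was called in the sums per mouse.

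Among genes that lesional interneurons carried at least as highly as the other lesional barcodes, 12 with the largest rises are named here, Meis2 and Tshz1 in the next paragraph. Ltbp1, which binds latent TGFβ in the matrix, was at 92.8 and 108 CPM in the lesions and 45.7 and 48.1 CPM in the parenchyma, without overlap (1.11 ± 0.19, adjusted p = 7.42e-05). It was higher in 4 of 4 mice (1.21, adjusted p = 0.00143) and in MGE-type and CGE-type nuclei alike in direction (1.02 and 1.04). Frmpd1, a scaffold protein (0.88 ± 0.19, adjusted p = 0.00213), and Zbtb16, a zinc finger transcription factor (0.74 ± 0.16, adjusted p = 0.00138), were also higher in 4 of 4 mice, with adjusted p = 0.0117 and 0.0275 in the sums per mouse. All 3 lost their call without the female Cxcl12-cKO mouse, and Frmpd1 and Zbtb16 also without the male. In excitatory neurons the ratios of Ltbp1, Frmpd1 and Zbtb16 were 0.72, 0.49 and 0.99. Chrm2, the muscarinic M2 receptor, was at 198 and 198 CPM against 101 and 99.1 CPM (1.01 ± 0.16, adjusted p = 2.83e-05), with a ratio of 1.30 in MGE-type and -0.41 in CGE-type nuclei and no call in the sums per mouse (0.55, adjusted p = 0.178). The ratio of Chrm2 was 1.02 and 0.85 in the female and the male Ctrl mouse. In the female and the male Cxcl12-cKO mouse it was 0.07 and -0.29. Pde11a (0.97), Tmtc2 (0.91), the scaffold Homer2 (0.82), Fstl4 (0.81), the transcription factor Nfib (0.78) and the adhesion protein Igsf11 (0.74) rose in the 4 sums, and none of these 6 was called in the sums per mouse. Pde11a was higher in only 2 of 4 mice, and Tmtc2 had a ratio of 0.17 in Ctrl and 1.65 in Cxcl12-cKO.

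Meis2 and Tshz1, transcription factors of striatal and olfactory GABA neurons, rose mainly through the library labelled Cxcl12-cKO. Meis2 was at 262 CPM in the lesion and 231 CPM in the parenchyma labelled Ctrl, and at 745 and 200 CPM in those labelled Cxcl12-cKO (1.07 ± 0.21, adjusted p = 0.000556). It was higher in 2 of 4 mice, and its ratio was -0.73 without the female Cxcl12-cKO mouse. Tshz1 was at 68.3, 50.8, 100 and 31.2 CPM in that order (1.00 ± 0.23, adjusted p = 0.00285). It was higher in 4 of 4 mice and was not called in the sums per mouse (0.76, adjusted p = 0.128). Nuclei with 3 or more Meis2 UMIs numbered 10 of 85 and 10 of 43 in the lesions and 41 of 277 and 40 of 310 in the parenchyma, so some members carry a gene that most cortical interneurons lack. Summed over the list of 10 striatal projection neuron markers, which holds Meis2 and the rule genes Rgs9, Drd1 and Drd2, members stood at 1374 and 1857 CPM in the lesions and 1516 and 1443 CPM in the parenchyma, or 141% and 196% of the other lesional and 76.6% and 78.1% of the other parenchymal barcodes. Pde10a made up most of this in 3 of the 4 sums, at 860, 814, 1040 and 1025 CPM, and it was found in 86.0% to 98.8% of nuclei. Bcl11b was at 139 and 155 CPM against 127 and 124 CPM and Rarb at 72.6 and 124 CPM against 84.0 and 56.7 CPM, and none of these 3 genes passed the test. Ppp1r1b and Adora2a had 0 UMIs in both lesional sums. With the Meis2 nuclei left out, 323 genes were higher, 306 of them among the 564, and 589 were lower, 560 of them among the 786.

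Genes of other lesional cells rose in lesional interneurons. Of the 564 genes that were higher, 454 stood at a lower level in interneurons than in the other lesional barcodes. The share over all genes tested was not counted, so nothing is read from this number. The largest of the 454 genes with enough UMIs were Bnc2, Neat1, Lrmda and Abca1. Bnc2, a zinc finger gene of connective tissue, was at 186 and 106 CPM against 8.77 and 22.6 CPM (3.32 ± 0.28, adjusted p = 8.63e-11). The nuclear RNA Neat1 (2.38 ± 0.23), Lrmda (2.20 ± 0.21) and the cholesterol exporter Abca1 (2.03 ± 0.19) followed. The other lesional barcodes held 2068, 1225, 1316 and 1128 CPM of Bnc2, Neat1, Lrmda and Abca1. In excitatory neurons the log2 ratios of these 4 genes were 2.41, 1.49, 1.53 and 2.09. Of 9 fibroblast markers tested 6 rose and none fell, against 4.5% of all genes tested that rose. The 6 included Col1a1, Col1a2, Col3a1, Dcn and Fn1. Of 11 markers of microglia and macrophages 8 rose, among them Csf1r and the 3 C1q genes, and P2ry12 fell. Summed over the list of 11, fibroblast transcripts were at 371 and 188 CPM in lesional interneurons, or 11.3% and 6.35% of their level in the other lesional barcodes, and at 54.5 and 55.8 CPM in parenchymal ones, or 86.7% and 87.1%. Microglia and macrophage transcripts were at 175 and 184 CPM against 62.1 and 68.1 CPM, and at 1342 and 1892 CPM in the other lesional barcodes. Astrocyte transcripts were at 293 and 310 CPM against 180 and 304 CPM, with Apoe, a lipid carrier of glia and macrophages, at 125 and 200 CPM against 35.5 and 54.3 CPM (1.87 ± 0.17). Of 6 astrocyte markers tested, Apoe and Slc1a3 rose and Gpc5 fell (-1.08 ± 0.32, adjusted p = 0.0255). The ratio was above 0 in 3 of the 6 and below 0 in 3. That of Gpc5 was -0.07 in Ctrl and -4.09 in Cxcl12-cKO. Excitatory neuron transcripts, over a list of 12, were at 660 and 667 CPM against 653 and 705 CPM, or 26.7% and 34.5% of the other lesional barcodes. Of that list Slc17a6, Neurod2 and Neurod6 had 0 UMIs in both lesional sums, which are shallower than the parenchymal sums, where none was at 0. Slc17a7, which the rule used, held 10 and 4 lesional UMIs. Cldn5 of endothelium and Mog and Olig2 of oligodendrocytes also had 0 UMIs in both lesional sums. Cldn5 was at 0 in both parenchymal sums too, and Olig2 was at 0 in the parenchymal sum labelled Ctrl. At most 1 member of each sum gave over 1% of its UMIs to markers of non-neuronal classes, and 476 and 662 genes were called higher and lower without them. In the sums per mouse 3 of the fibroblast and 1 of the microglia and macrophage markers were higher. Median ratios of the tested fibroblast and macrophage lists were 2.35 and 2.62 in interneurons and 1.34 and 1.55 in excitatory neurons. The part of other cells' RNA in the genes that rose was not tested beyond these values.

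Of 16 interferon response and MHC class I genes tested, 3 rose and none fell, against 4.5% of all genes tested that rose. They were B2m, the light chain of MHC class I (2.18 ± 0.52, adjusted p = 0.00394), Rnf213 (1.63 ± 0.50, adjusted p = 0.0292) and the receptor Ifnar1 (0.94 ± 0.31, adjusted p = 0.0441). B2m held 17 and 9 lesional UMIs against 14 and 21, and stood at 81.7 CPM in the other lesional barcodes against 14.3 and 17.6 CPM in lesional interneurons. Ifnar1 was not called in the sums per mouse (adjusted p = 0.163), and B2m and Rnf213 were too rare to be tested there. All 13 mitochondrially encoded transcripts rose, with a median of 1.42, and 10 of them were again called in the sums per mouse. In excitatory neurons the median of this list was 2.10, so a rise was measured there too. Together they were at 1734 and 3135 CPM in lesional interneurons and 609 and 1329 CPM in parenchymal ones, so the groups did not overlap, and the single gene mt-Co1 had a ratio of 1.55 ± 0.16 (adjusted p = 5.16e-09). Transcripts of mitochondrial genomes lie outside the nucleus, and the other lesional barcodes held 1528 CPM of mt-Co1 against 243 and 429 CPM in lesional interneurons. Of 80 nuclear-encoded genes of the respiratory chain tested, 13 fell and none rose, with a median of -0.57, against 6.27% of all genes tested that fell. The shortest sixth of protein-coding genes had a median of -0.50, with 8.77% called lower. The part of gene span in the median of this list was not tested. In excitatory neurons the list median was -0.36. Cox7c, a subunit of cytochrome oxidase, was at 31.2 and 27.4 CPM against 80.3 and 67.5 CPM (-1.31 ± 0.23, adjusted p = 0.000135), and Cox7b (-1.05) and Cox8a (-1.25) were likewise called in both fits. Ndufs4 (0.07) did not pass.

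**Figure D4:**
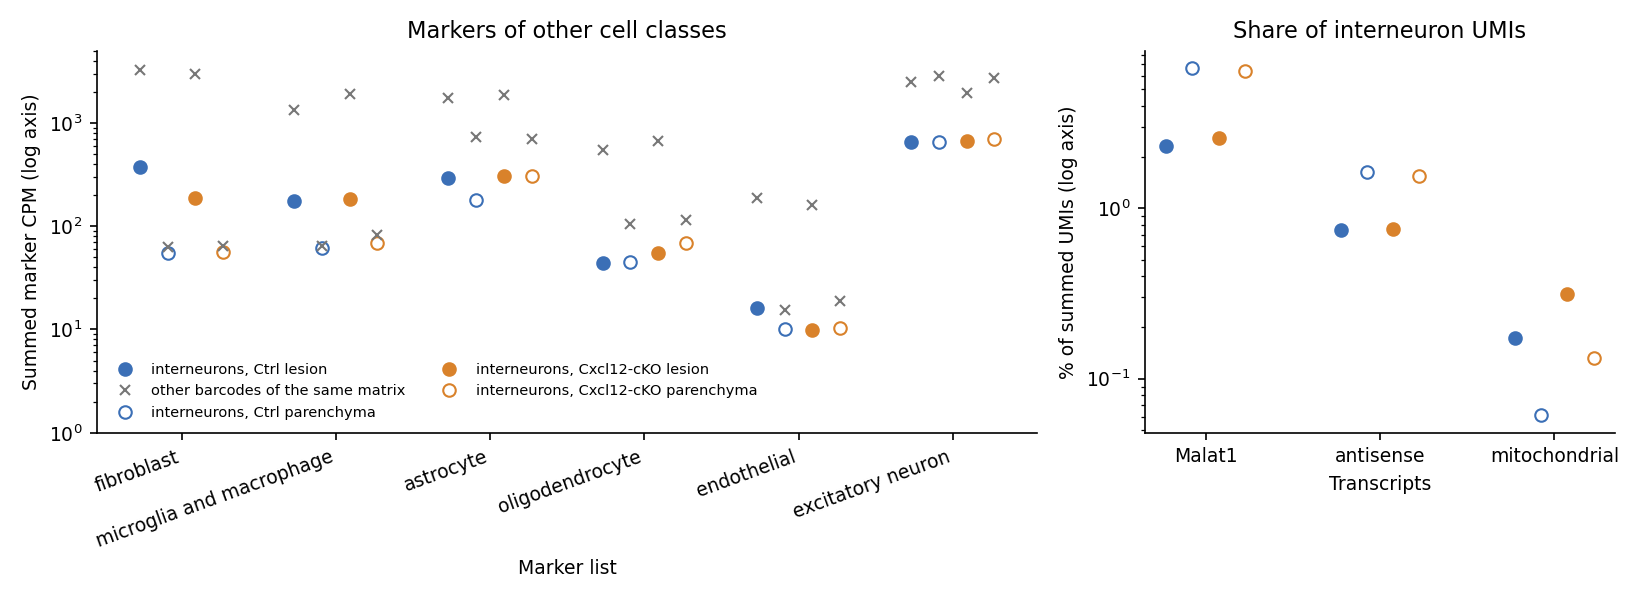
Left, summed level of 6 marker lists of other cell classes in CPM on a log axis, with circles for interneurons (blue Ctrl, orange Cxcl12-cKO, filled lesion, open parenchyma) and crosses for all other barcodes of the same matrix. Right, share of interneuron UMIs, in % on a log axis, in Malat1, in antisense genes and in mitochondrially encoded transcripts; fibroblast markers are at 371 and 188 CPM in lesional and 54.5 and 55.8 CPM in parenchymal interneurons, and Malat1 takes 2.32% and 2.60% against 6.66% and 6.39%.

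Of 18 genes of the unfolded protein and heat shock response tested, 4 fell and none rose, against 6.27% of all genes tested that fell. These were the growth factor Manf (-1.66 ± 0.30, adjusted p = 0.000201), Herpud1 (-1.74), the chaperone Hspa8 (-0.89) and Dnajb1, which held 0 lesional UMIs against 19 and 21 and was at least 2.31-fold lower. Atf6 (0.26) did not pass. Of 81 cytosolic ribosomal protein genes Rpl6, Rps13 and Rps20 fell (-0.99, -1.27 and -1.22) and none rose, with a median of -0.11, or -0.45 within Ctrl and 0.33 within Cxcl12-cKO.

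Noncoding transcripts on the strand opposite to other genes were among those that fell. Of 607 genes annotated as antisense in GENCODE M21, 266 fell (43.8%) and 6 rose, with a median log2 ratio of -1.74, against 0.02 in 11099 protein-coding genes and -0.23 in 354 lincRNAs. Antisense genes took 0.748% and 0.752% of UMIs in lesional and 1.63% and 1.54% in parenchymal interneurons. The groups did not overlap, and in each of the 4 mice the lesional share, 0.710% to 0.785%, was below the parenchymal one. The median was -1.81 over the 308 antisense genes tested in the sums per mouse and -2.08 over the 181 tested with each nucleus thinned to 3000 UMIs. It was -1.82 in MGE-type nuclei alone. Excitatory neurons by the mirrored rule had a median of -1.72 over 596 of these genes, so a like difference was measured there. A gene that fell through the parenchyma alone could enter the test, and these medians over tested genes are descriptions.

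Single antisense genes were nearly absent from lesional interneurons. Nrg3os, opposite the neuregulin gene Nrg3, was counted with 33 and 9 UMIs in the lesions and 1513 and 1533 UMIs in the parenchyma (-3.72 ± 0.21, adjusted p = 2.16e-14), while Nrg3 itself stood at 5342 and 4436 CPM against 4931 and 4781 CPM (0.03 ± 0.11). Gm28379, opposite the ubiquitin ligase gene Herc1, held 1 and 1 lesional against 198 and 244 parenchymal UMIs, a 38.3-fold lower level with a counting interval of 10.5 to 317. The other genes with the largest falls that interneurons carried at least as highly as other parenchymal barcodes were of the same kind or lincRNAs. They were B230217J21Rik, with 0 lesional against 60 and 69 parenchymal UMIs and at least 7.45-fold lower, 4930556N13Rik opposite Akap1, Far2os1, 4921511I17Rik, Gm27241, Gm28750 opposite the adhesion gene Lsamp, 4930488N15Rik, Gm2516, Gm11817, 8030451O07Rik and Gm15577 opposite Negr1. Among those that other parenchymal cells carried more highly were Gm9831, at 0 lesional against 51 and 61 parenchymal UMIs, Gm17202, Gm29587 and 4933411O13Rik. Macrod2os1 (-3.77 ± 0.49), Dtnbos (-3.59 ± 0.42), Plxna4os3 (-3.41 ± 0.46) and Nell1os (-3.76 ± 0.70) fell, and their partners Macrod2 (0.02), Dtnb (0.20), Plxna4 (0.42) and Nell1 (-0.47) were not called. The sources used here do not say whether the counting used the strand, so UMIs of overlapping genes are uncertain, although the partners on the 2 strands differed in these counts.

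Protein-coding genes opposite a stronger neuronal transcript showed falls too. Ube3a, the Angelman ubiquitin ligase whose paternal copy is silenced in neurons by an antisense RNA, was counted with 254 and 51 UMIs in the lesions and 3798 and 4501 UMIs in the parenchyma. These were 214 and 100 CPM against 877 and 826 CPM, without overlap (-2.42 ± 0.18, adjusted p = 8.13e-12), and lower in 4 of 4 mice (-2.45, adjusted p = 4.04e-05). Snhg14, the transcript opposite Ube3a, was at 1476 and 1402 CPM against 1279 and 1338 CPM (0.17 ± 0.13) and was not called. Ctnna3, opposite Lrrtm3, was at 98.7 and 104 CPM against 474 and 394 CPM (-2.09 ± 0.17, adjusted p = 7.22e-11), with Lrrtm3 at 0.01 ± 0.14. Fgf1, a fibroblast growth factor opposite Gm5820, was at 21.9 and 13.7 CPM against 129 and 118 CPM (-2.68 ± 0.24, adjusted p = 4.54e-10). Lrtm1 inside Cacna2d3 (-4.06), Flrt3 inside Macrod2, Scn9a opposite Gm13629 and Manf opposite Dcaf1 followed the same order, and the partner was not called in any of these pairs. The pairs were chosen after their values were seen. Over all genes, the median was 0.02 in 7219 protein-coding genes with no counted gene on the opposite strand, 0.06 in 2841 with a weaker partner, -0.21 in 915 with a partner 1 to 10 times as abundant and -0.66 in 124 with a partner 10 times as abundant or more. In other gene classes the same steps gave -0.13, -0.13, -1.47 and -2.15, over 409, 196, 351 and 325 genes.

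Malat1, an abundant RNA kept in nuclear speckles, took 2.32% and 2.60% of UMIs in lesional and 6.66% and 6.39% in parenchymal interneurons. Its log2 ratio was -1.38 ± 0.09 (adjusted p = 9.81e-13), and -1.40 over the mouse pairs (adjusted p = 0.000161), lower in 4 of 4 mice. It was -1.12 in excitatory neurons. Snhg11 fell (-0.81 ± 0.11, adjusted p = 3.68e-06), whereas other abundant noncoding RNAs of neurons did not pass, at -0.01 for Meg3, 0.08 for Rian and 0.04 for Kcnq1ot1. A like gradient ran along the genomic span of protein-coding genes with no stronger partner. Split in 6 by span, the medians went from -0.50 in the shortest, of a median span of 6095 bases, through -0.18, -0.0014, 0.12 and 0.19, to 0.21 in the longest, of a median span of 211569 bases. In excitatory neurons they ran from -0.41 to 0.22. The share of genes that fell went from 8.77% in the shortest to 2.15% in the longest, and the share that rose from 1.79% to 14.5%. Span moves with level, with median CPM of 9.67 in the shortest and 134 in the longest, so these shares also move with the counts behind each gene.

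**Figure D5:**
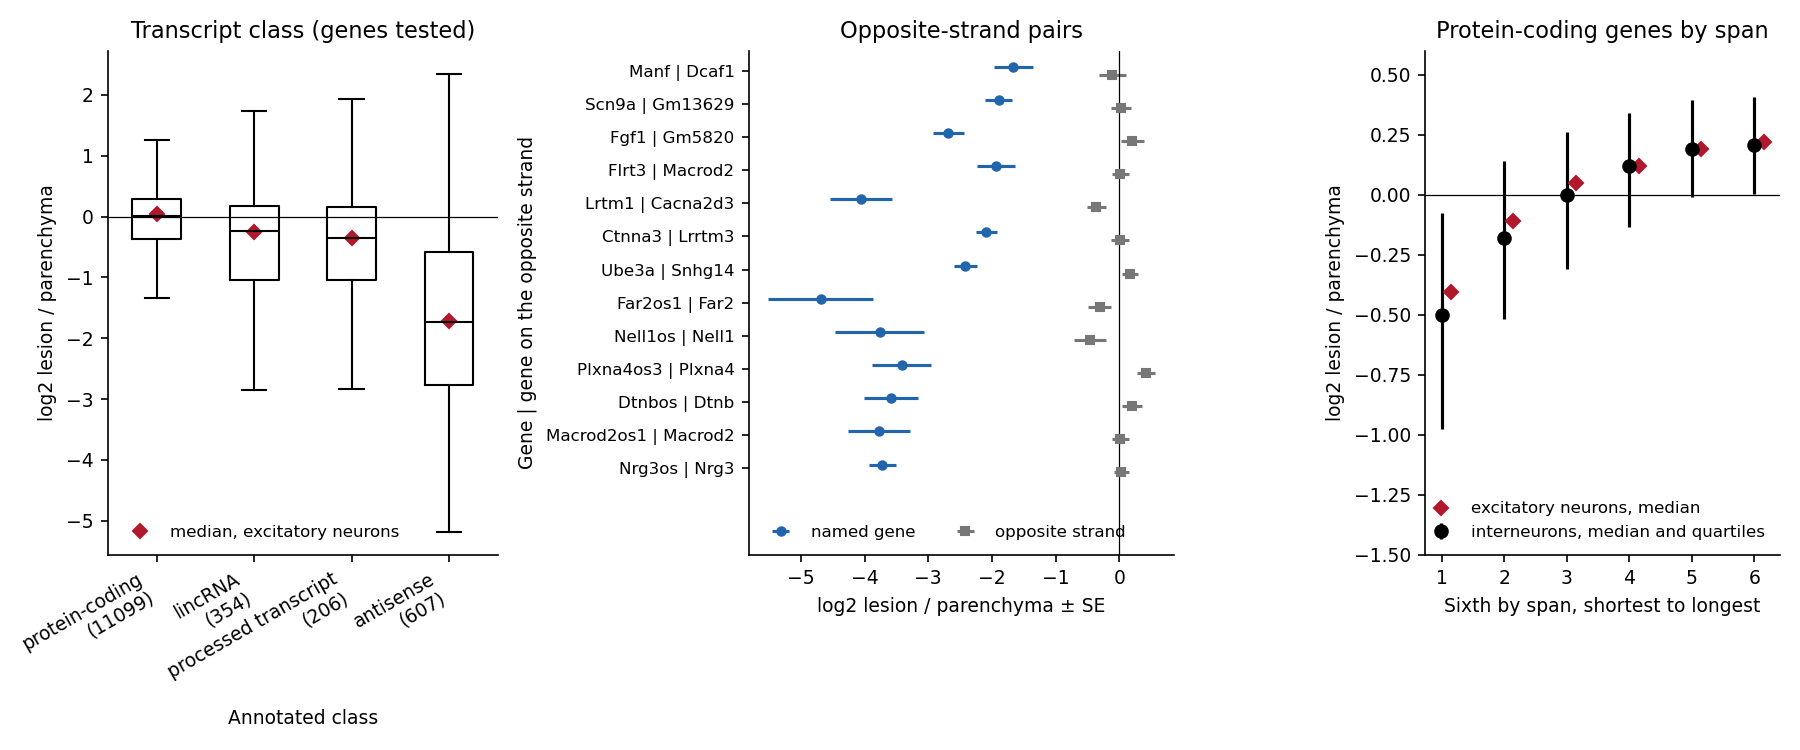
Left, log2 ratio of lesion over parenchyma by annotated class (box, quartiles; line, median; whiskers, 1.5 times the interquartile range; outliers not drawn; diamonds, medians in excitatory neurons). Middle, log2 ratio ± SE of 13 genes (circles) and of the gene on the opposite strand (squares), and right, median and quartiles by sixth of protein-coding genes ordered by span, with the medians of excitatory neurons; antisense genes have a median of -1.74, and the span medians run from -0.50 to 0.21.

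Few genes passed a test of whether the region ratio differed between the libraries. Its smallest sum held 9 lesional nuclei, so genes that did not pass may still differ. In this test of region by library over the sums per mouse, 1 of 9359 genes passed (0.0107%) and 432 had an unadjusted p under 0.05. That gene was Pde1c, a calcium-activated phosphodiesterase, which was lower in the lesion labelled Ctrl and higher in the lesion labelled Cxcl12-cKO.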

How the data were processed

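Single-nucleus transcriptomes of lesion and parenchyma at 21 dpi were examined in 2 libraries. Per the submitters' processing notes, the authors ran Cell Ranger 9.0.0 on GRCm39, and they assigned barcodes to regions by CellPlex tags. The deposited values are UMI counts in 4 matrices of 33696 genes, whole numbers with no normalization. The sources used here do not say whether introns or strand were used. No per-sample column was left unused.

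UMIs of members were summed per library and region and tested with edgeR 4.0.16 in R 4.3.3 (TMM, filterByExpr, quasi-likelihood test, library and region as terms, Benjamini-Hochberg adjustment over all genes tested). The regions of a library came from the same 2 mice, which is where the pairing comes from. The fit had 1 residual degree of freedom, from the spread between 2 libraries, and prior degrees of freedom of 33.2 borrowed across genes. The p-values therefore rest mostly on a spread shared across genes. A gene with unlike ratios in the 2 libraries could pass, as Tmtc2 did with 0.17 and 1.65. Ratios within a library came from R on sums scaled by TMM, and ratios within a mouse from Python 3.11.15, each with 0.5 UMI added. Interval bounds were exact binomial limits from Python with nothing added. On simulated counts for this comparison, 48, 28, 43 and 50 of 50 genes were recovered at log2 changes of -2, -1, 1 and 2, and 3 of 11903 unchanged genes were called. These counts were drawn with the fitted spread and the same region change in both libraries. The 3 calls therefore cannot show how many calls in the real data are false. Changed genes were drawn from the more abundant genes, so recovery of sparse genes was not measured. Alternatives included DESeq2 1.42.0, sums per mouse, no block, other filters and rules, and leaving out each mouse. No doublet caller was run. Members with both Xist and Y-linked UMIs were left out as an alternative.

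Named genes were those called and not used by the rule, with at least 50 UMIs in the higher region of each library. They were the 12 largest in each direction whose level there was at least that of the other barcodes, the 4 largest that failed only this, and the most abundant and the called members of each list. The members, lists and tests were chosen with earlier results of these data known. The leaving out of Meis2 nuclei, the test of region by library, the excitatory neurons and the descriptions of opposite strands, span and promoters were added after the data were seen. Class, span and overlap came from GENCODE M21, in which 12380 of the genes tested matched by identifier and 155 did not, and promoters from RefSeq on GRCm38.p6. Some members of the gene lists are not reported here.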

Additional observations from a re-analysis of the deposited data

Results flagged for a closer look

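Pde1c was flagged because its region effect differed between the libraries by a test of that difference. The log2 ratio of lesion over parenchyma was 3.13 ± 0.354 (SE) higher in the library labelled Cxcl12-cKO than in the library labelled Ctrl (edgeR, region by library over sums per mouse, adjusted p = 0.024). Interneurons held 28 UMIs in the lesion and 445 in the parenchyma labelled Ctrl, and 89 and 502 in those labelled Cxcl12-cKO. The ratio was -1.81 and -2.06 in the female and the male Ctrl mouse and 1.40 and 1.02 in the female and the male Cxcl12-cKO mouse. Each genotype was 1 library, so genotype and library cannot be told apart.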

How the results depend on the processing

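The directions of the named genes were kept in most settings, but the numbers of genes called were not. Fewer genes were higher and lower with each nucleus thinned to 3000 UMIs (71 and 188), without members holding Xist and Y-linked UMIs (229 and 497), in CGE-type nuclei alone (98 and 232), with Slc17a7 at 0 and 8 or more Gad1 and Gad2 UMIs (31 and 107), with the rule applied after thinning to 3000 UMIs (3 and 0, with 37 and 70 at an unadjusted p under 0.05), in sums per mouse (91 and 381) and in DESeq2 (75 and 133). Fewer were higher with no filter on low counts (364), in sums by type (323) and without Meis2 nuclei (323). Leaving out 1 mouse gave 72 to 370 higher and 219 to 601 lower genes, lowest in both directions without the female Cxcl12-cKO mouse. Without the replicate block 636 and 792 genes were called. In the order Ctrl lesion, Ctrl parenchyma, Cxcl12-cKO lesion and Cxcl12-cKO parenchyma, members were 0.912%, 4.42%, 0.303% and 6.27% of barcodes under the stricter rule and 0.517%, 2.03%, 0.0757% and 2.47% under the thinned rule, and with 5000 or more UMIs they were 4.68% and 2.25% in the lesions. By Sst, Pvalb and Lhx6 against Adarb2, MGE-type nuclei were 48.2%, 48.4%, 30.2% and 46.5%, and CGE-type nuclei were 41.2%, 40.4%, 48.8% and 41.9%. In the Cxcl12-cKO lesion 20.9% were of neither type, so the shares there moved with the markers used. Over all settings, 1687 values of called genes kept their direction and call, 822 lost the call, 15 reversed and 124 moved beyond their error within 1 library alone (53 in Ctrl, 71 in Cxcl12-cKO), and 90 of the losses were in DESeq2. The ratio turned negative for Meis2 without Meis2 nuclei (-0.82) and without the female Cxcl12-cKO mouse (-0.73, with 1.37 as the highest value on leaving out 1 mouse), for Chrm2 (-0.41), Nos1 (-1.70) and Grik4 (-0.0128) in CGE-type nuclei, for Nos1 (-0.10) and Cntn4 (-0.24) under the stricter rule, and under the thinned rule for Chrm2 (-0.91), Tmtc2 (-0.58), Homer2 (-0.17), Unc13b (-0.0487), Cntn4 (-0.62), Vcan (-0.15), Erbb4 (-0.0920) and Fgf13 (-0.27). The cause was not tested, beyond the fewer nuclei and UMIs that these settings hold. The 43 lesional nuclei labelled Cxcl12-cKO, with 510101 UMIs, limit what can be detected.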
